A study of Homo sapiens with 6 samples.

Results

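The genes described are 41 genes of cholesterol and fatty acid synthesis. They were taken from a list of symbols matched by GENCODE identifier, out of 63086 genes in the count table, and 40 of the 41 were tested among 16046 genes. They fall into 5 regulators of the SREBP pathway, 18 genes of the sterol branch and 18 genes of the fatty acid branch. The libraries come from A375, an established human melanoma line. There are 3 wild-type libraries, from cells maintained without targeting of DUS1L, and 3 DUS1L knockout libraries, from CRISPR/Cas9-edited cells that had also gone through clonal selection. DUS1L encodes a dihydrouridine synthase that modifies tRNA. Both groups were grown in DMEM with serum and no other treatment is given. How many clones stand behind the knockout libraries is not given in the sources used here, so genotype and clone cannot be told apart.

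Cells make cholesterol from acetyl-CoA through mevalonate, farnesyl diphosphate and squalene, and they make fatty acids from the same acetyl-CoA through malonyl-CoA. Both routes are driven by the SREBP transcription factors, which are made as membrane proteins of the endoplasmic reticulum. INSIG proteins hold the SREBP escort protein SCAP there when sterols are plentiful. When sterols run short, SCAP carries SREBP to the Golgi, where proteases release the active factor. The product of SREBF2 acts mainly on sterol genes and the products of SREBF1 mainly on fatty acid genes.

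The libraries held 17121315 to 18861514 estimated counts each. DUS1L itself was at 75.7 to 79.95 CPM (counts scaled to library size) in wild-type and 53.1 to 55.4 CPM in knockout libraries, so transcript remained in each knockout library (1.43-fold lower, adjusted p = 1.7e-06). Where in the gene the edit lies is not given in the sources used here. Wild-type replicate 1 stood apart on the second principal component (13.7% of the variance). The 9 melanocyte lineage markers summed to 618 to 653 CPM over the wild-type replicates against 484 to 549.9 CPM in knockout libraries. SOX10 made up the most and was itself lower in knockout cells. S100B was called lower as well (7.94 ± 0.87 to 4.26 ± 0.52 CPM, SD, n = 3 each, adjusted p = 0.000325). MITF (19.6 ± 0.7 and 20.6 ± 1.2 CPM, adjusted p = 0.586), S100A1 (adjusted p = 0.211) and TYRP1 (at most 14 counts, adjusted p = 0.39) were not called. The pigment cell genes TYR, DCT, PMEL and MLANA had at most 9 counts in any library. Among other cell types with high lipid turnover, ADIPOQ, LEP, FABP4 and CIDEA, 4 of 7 adipocyte markers, had no count in any library, and the list summed to 37.0 to 47.2 CPM over the wild-type replicates against 30.5 to 38.0 CPM in knockout libraries, most of it PPARG. Hepatocyte markers summed to 9.97 to 11.5 and 14.7 to 22.2 CPM, mostly SERPINA1, with ALB at no more than 9 counts. SERPINA1 was called higher in knockout cells (8.93 ± 0.26 to 17.4 ± 3.6 CPM, adjusted p = 1.57e-05), and TF was not called (adjusted p = 0.392). Leukocyte markers summed to 2.82 to 3.31 and 6.76 to 12.4 CPM, mostly ITGAM, and CD3E and MS4A1 had no count. ITGAM was called higher in knockout cells (2.55 ± 0.21 to 8.09 ± 2.93 CPM, adjusted p = 3.55e-05), and CSF1R was not called (adjusted p = 0.0949). Fibroblast markers summed to 36.4 to 82.4 CPM and 59.5 to 176.8 CPM, led by COL1A1. COL1A1 and COL1A2 had the higher means in knockout cells, but their groups overlapped and neither was called (adjusted p = 0.311 and 0.277). The other fibroblast markers had lower means there. Of these PDGFRB was called lower (11.8 ± 1.3 to 6.36 ± 1.04 CPM, adjusted p = 8.11e-05), DCN, LUM and PDGFRA were not called, and THY1 was not tested. Keratinocyte and sebocyte markers summed to 53.4 to 59.3 CPM in wild-type and 50.3 to 59.8 CPM in knockout libraries, mostly KRT10. KRT10 and KRT14 were not called (adjusted p = 0.738 and 0.74), and KRT5, KRT1 and AWAT2 had no count. The part of these markers in the results was not tested.

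In DUS1L knockout cells more genes of the fatty acid branch were lower than higher, genes of the sterol branch were called in both directions, and SREBF1 had the lowest log2 fold change of the 40 tested genes. A gene is called here when its adjusted p is under 0.05 in edgeR's quasi-likelihood test, adjusted by the Benjamini-Hochberg method over all tested genes. Of the 40 tested genes, 16 were lower and 5 were higher in knockout cells. Over all tested genes, 20.7% were called lower and 20.5% were called higher. By branch, 3 of 5 regulators were lower and none was higher. In the sterol branch 4 of 18 genes were lower (22.2%) and 3 were higher (16.7%), near the shares over all tested genes. In the fatty acid branch 9 of 17 tested genes were lower (52.9%) and 2 were higher (11.8%). The median log2 fold change (knockout minus wild-type) was -0.19 for regulators, -0.09 for the sterol branch and -0.25 for the fatty acid branch, against -0.0042 over all tested genes. The sterol median was -0.05 without wild-type replicate 2, where the median over all tested genes was -0.0002. With library size alone as the scaling factor it was -0.05 as well, where the median over all tested genes was 0.04. Without knockout replicate 1, 6 fatty acid genes were lower and 1 was higher. Calls over all tested genes in that refit were 2770 lower and 2755 higher, against 3320 and 3288. The order of the branches was not kept in the further lists described below. There the median was -0.37 for other genes of sterol synthesis and -0.05 for other genes of fatty acid synthesis and elongation. No list was tested as a set, because its members were chosen with earlier results known.

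The shifts were small. Tested against a change of 1.5-fold (edgeR glmTreat), none of the 40 genes passed, with a smallest adjusted p of 0.212 and with 2 genes, SREBF1 and HMGCS1, at an unadjusted p under 0.05. Over all tested genes, 2.31% were called higher and 1.27% lower by that test. All 3 knockout libraries lay below all 3 wild-type libraries in 19 of the 40 genes and above them in 5, against 25.8% and 25.4% of all tested genes. Together the 41 genes took 0.274% to 0.296% of all counts in wild-type libraries and 0.2499% to 0.259% in knockout libraries. Without wild-type replicate 1 the branch counts were 3 lower regulators, 5 lower and 3 higher sterol genes, and 8 lower and 3 higher fatty acid genes. Calls over all tested genes in that refit were 3307 lower and 3330 higher, against 3320 and 3288.

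**Figure D1:**
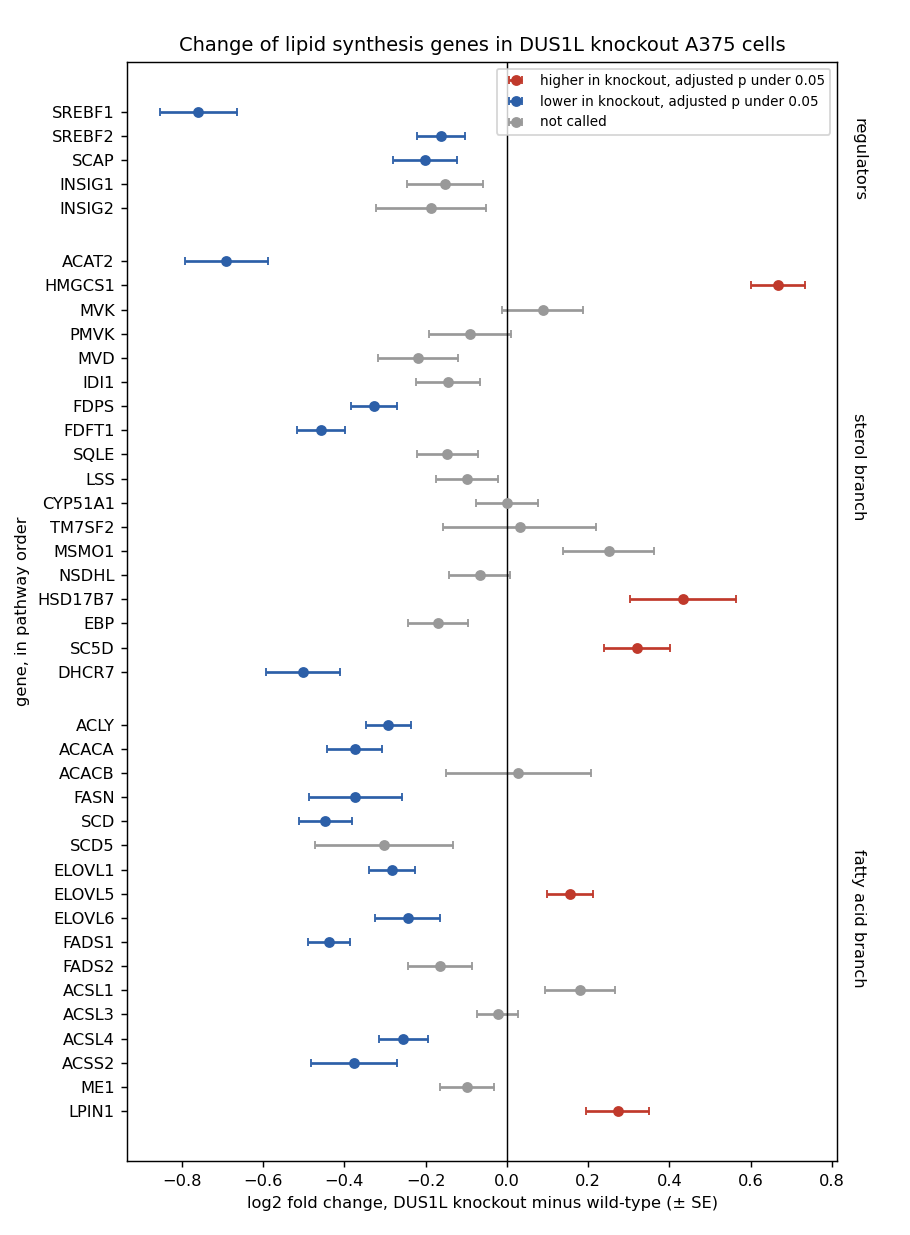
Log2 fold change of each of the 40 tested genes, knockout minus wild-type, with its standard error as the bar, in pathway order within the regulators, the sterol branch and the fatty acid branch. Red marks the 5 genes called higher, blue the 16 called lower and grey those not called; SREBF1 at -0.76 and HMGCS1 at 0.67 lie at the ends.

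The promoter windows of 4 genes are printed because they span the directions seen: the regulator SREBF2 and the enzymes FDPS and SCD, all lower, and HMGCS1, which was higher. RefSeq windows of 250 bases before to 50 bases after a transcript start (GRCh38.p14) were found for 37 of the 41 genes, 55 windows in all, and ACAT2, FASN, FDFT1 and SQLE had none. Windows were searched on both strands for TCACNCCAC, a sterol regulatory element to which SREBP binds, and for CCAAT, the box bound by the factor NF-Y, and the 2 motifs do not overlap in the windows shown. Capitals mark the matches, and ATTGG is CCAAT on the other strand. The windows lie at chr22:41832855-41833154 (plus strand) for SREBF2, chr5:43313363-43313662 (minus strand) for HMGCS1, chr1:155308616-155308915 (plus strand) for FDPS and chr10:100346983-100347282 (plus strand) for SCD. The table has 2 windows for HMGCS1, and the upstream one is shown because it holds the matches.
SREBF2: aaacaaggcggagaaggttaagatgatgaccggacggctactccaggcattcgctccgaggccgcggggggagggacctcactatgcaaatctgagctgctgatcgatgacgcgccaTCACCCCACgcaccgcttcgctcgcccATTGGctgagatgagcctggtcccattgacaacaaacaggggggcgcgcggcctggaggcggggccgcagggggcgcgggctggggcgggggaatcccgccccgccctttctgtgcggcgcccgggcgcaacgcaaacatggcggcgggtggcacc
HMGCS1: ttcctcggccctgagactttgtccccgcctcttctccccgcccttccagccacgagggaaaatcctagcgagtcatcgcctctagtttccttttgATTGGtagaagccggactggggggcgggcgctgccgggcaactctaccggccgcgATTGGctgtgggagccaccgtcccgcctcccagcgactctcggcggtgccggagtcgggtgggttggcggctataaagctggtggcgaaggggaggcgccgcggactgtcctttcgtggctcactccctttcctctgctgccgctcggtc
FDPS: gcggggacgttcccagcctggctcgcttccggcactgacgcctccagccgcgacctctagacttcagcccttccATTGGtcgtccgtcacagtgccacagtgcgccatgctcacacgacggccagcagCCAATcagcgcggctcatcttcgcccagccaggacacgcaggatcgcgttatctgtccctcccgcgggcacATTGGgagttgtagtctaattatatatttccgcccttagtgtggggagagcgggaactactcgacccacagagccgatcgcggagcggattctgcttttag
SCD: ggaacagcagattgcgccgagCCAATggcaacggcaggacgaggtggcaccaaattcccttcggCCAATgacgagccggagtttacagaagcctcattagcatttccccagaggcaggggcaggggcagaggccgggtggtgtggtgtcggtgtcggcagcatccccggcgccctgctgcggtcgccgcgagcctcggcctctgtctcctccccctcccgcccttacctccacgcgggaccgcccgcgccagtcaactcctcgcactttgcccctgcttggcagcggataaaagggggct

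TCACNCCAC was found for 2 of the 37 genes (5.41%), SREBF2 and ACSL1, and for 1.39% of all 27305 genes with a window. Among tested genes with a window it was found for 1.43%. In SREBF2 it begins 133 bases before the start and reads TCACCCCAC. A CCAAT box stood in at least 1 window of 13 of 15 sterol genes, 12 of 17 fatty acid genes and 2 of 5 regulators, or 73.0% of the 37 genes, and in 39.7% of all genes with a window. Among tested genes with a window the share was 43.2%. Counted by window, a CCAAT box stood in 56.4% of the 55 windows and in 34.7% of the windows of tested genes. It was present in HMGCS1 and in FDPS, which moved in opposite directions. A match in letters shows no binding, and the lack of one says only that these letters are not in that window.

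Of the regulators, SREBF1 had the largest change. SREBF1 (ENSG00000072310.18, chromosome 17, 17810399 to 17837002, minus strand, GRCh38) was at 84.2, 108 and 107 CPM over the wild-type replicates against 63.7, 53.6 and 59.8 CPM in knockout libraries. Every knockout value lay below every wild-type value, and wild-type replicate 1 was the lowest of its group. The level in knockout cells was 59.1% of that in wild-type (log2 fold change -0.76 with SE 0.09, adjusted p = 3.23e-05), and the log2 fold change was -0.87 without wild-type replicate 1. The gene makes several SREBP isoforms from different starts, which gene counts do not separate. Its exons overlap 556 bases of RAI1 on the other strand, and RAI1 itself was not called (0.06 on the log2 scale, adjusted p = 0.423).

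SREBF2, the sterol-directed factor, was at 94.4, 99.2 and 98.1 CPM over the wild-type replicates against 87.5, 83.3 and 89.8 CPM in knockout libraries. Its groups did not overlap either, but the step was small (log2 fold change -0.16 with SE 0.06, adjusted p = 0.0311). Removing wild-type replicate 2 or 3 ended the call (adjusted p = 0.0948 and 0.0755), and so did removing knockout replicate 1 or 2 (adjusted p = 0.0699 and 0.122). It was also lost under scaling by library size alone (adjusted p = 0.12) and with replicate number as a block (adjusted p = 0.0535). SREBF1 and SREBF2 were at like levels per length in wild-type cells, 12.1 CPM per kb of exon each, and at 7.17 and 10.8 CPM per kb in knockout cells.

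SCAP, the escort protein gene, was at 69.2, 81.7 and 88.3 CPM over the wild-type replicates against 73.96, 66.2 and 67.8 CPM in knockout libraries. Here the groups overlapped, since knockout replicate 1 was above wild-type replicate 1. The call (log2 fold change -0.20 with SE 0.08, adjusted p = 0.0495) was lost in 10 of the 14 alternatives run, DESeq2 (adjusted p = 0.0654) and limma-voom (0.0704) among them, and without wild-type replicate 2 or 3 (0.135 and 0.252) or knockout replicate 2 or 3 (0.17 and 0.145). The retention genes were not called. INSIG1, itself a classic SREBP target, was at 36.6, 38.2 and 30.3 CPM over the wild-type replicates against 30.3, 29.9 and 34.4 CPM in knockout libraries (adjusted p = 0.201). Without wild-type replicate 3 it was called lower, at log2 fold change -0.25 (adjusted p = 0.0463). INSIG2 was at 12.6, 12.2 and 11.8 CPM against 8.66, 12.02 and 11.6 CPM, so that knockout replicate 1 stood alone below the other libraries (adjusted p = 0.289).

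In the sterol branch, the first steps moved in opposite directions. ACAT2 encodes the thiolase that joins acetyl-CoA units, and HMGCS1 encodes the HMG-CoA synthase that acts on its product. ACAT2 was at 27.6, 29.6 and 31.2 CPM over the wild-type replicates against 16.0, 20.9 and 17.9 CPM in knockout libraries, 1.61-fold lower in knockout (log2 fold change -0.69 with SE 0.10, adjusted p = 1.88e-05). HMGCS1 was at 50.03, 47.6 and 51.4 CPM over the wild-type replicates against 82.8, 74.4 and 79.3 CPM in knockout libraries, 1.59-fold higher in knockout (log2 fold change 0.67 with SE 0.07, adjusted p = 1.16e-07). For neither gene did the groups overlap, and both were called in each of the 14 alternatives.

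ACAT2 shares exonic sequence with genes on the opposite strand, 454 bases with TCP1 and 133 bases with SOD2. TCP1, a chaperonin subunit gene, was higher in knockout cells (330.6 ± 5.0 to 361 ± 4 CPM, SD, n = 3 each, adjusted p = 0.0363), and SOD2, which encodes mitochondrial superoxide dismutase, was higher as well (80.2 ± 5.8 to 182 ± 33 CPM, adjusted p = 0.00064). The strand setting of the counting is not given, so reads in the shared stretch cannot be assigned. Their part in the ACAT2 value was not tested.

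Between mevalonate and isopentenyl diphosphate, no gene was called. The kinase genes MVK and PMVK were at 19.8 ± 0.9 and 22.8 ± 2.5 CPM over the wild-type replicates against 21.0 ± 1.8 and 21.4 ± 0.98 CPM in knockout cells (SD, n = 3 each). The decarboxylase gene MVD was at 23.9, 23.5 and 28.4 CPM over the wild-type replicates against 22.5, 20.8 and 21.9 CPM in knockout libraries, without overlap but not called (adjusted p = 0.0785). IDI1, the isomerase gene, was at 47.1 ± 3.6 and 42.5 ± 2.9 CPM (adjusted p = 0.147).

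The genes that lead into squalene were lower. FDPS makes farnesyl diphosphate, from which sterols, dolichol, ubiquinone and protein prenyl groups all derive. FDPS was at 127.7, 138 and 126.7 CPM over the wild-type replicates against 105.2, 104.9 and 103 CPM in knockout libraries (log2 fold change -0.33 with SE 0.06, adjusted p = 9.24e-05). FDFT1, squalene synthase, takes farnesyl diphosphate into the sterol route, and its levels were 113.8, 120.1 and 110.2 CPM over the wild-type replicates against 84.9, 82.3 and 83.5 CPM in knockout libraries (log2 fold change -0.46 with SE 0.06, adjusted p = 2.64e-06). The knockout values of both genes lay close together and wholly below the wild-type values. The 8 named FDPS pseudogenes had at most 4 counts each in any library.

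From squalene to lanosterol and its demethylation, values barely differed. SQLE, the squalene epoxidase gene, was at 43.5, 45.5 and 43.0 CPM over the wild-type replicates against 39.4, 37.6 and 42.3 CPM in knockout libraries, below without overlap but not called (adjusted p = 0.122). LSS, lanosterol synthase, was at 44.05 ± 3.03 and 41.2 ± 1.9 CPM (adjusted p = 0.325). CYP51A1, the lanosterol demethylase gene, was at 44.8 ± 3.4 and 44.8 ± 2.4 CPM (adjusted p = 0.996). With transcript length and GC content corrected for, SQLE, IDI1 and EBP were called lower (adjusted p = 0.0265, 0.0253 and 0.046), which brought the lower sterol genes to 7.

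The late steps, which trim and rearrange the sterol ring, held genes called in each direction. DHCR7, the reductase that makes cholesterol from its direct precursor, was at 34.7, 44.1 and 41.2 CPM over the wild-type replicates against 28.3, 29.7 and 26.9 CPM in knockout libraries (log2 fold change -0.50 with SE 0.09, adjusted p = 0.000137). SC5D, the desaturase that acts just before it, was higher, at 32.2, 28.5 and 29.8 CPM over the wild-type replicates against 39.6, 35.2 and 38.1 CPM in knockout libraries (log2 fold change 0.32 with SE 0.08, adjusted p = 0.00345). In neither gene did a library cross into the other group's range. HSD17B7, a sterol ketoreductase gene, was at 12.5, 10.1 and 9.48 CPM over the wild-type replicates against 15.9, 13.3 and 13.9 CPM in knockout libraries (log2 fold change 0.43 with SE 0.13, adjusted p = 0.0111). It was no longer called on removing wild-type replicate 2 or 3 (adjusted p = 0.0532 and 0.0606) or knockout replicate 1 (adjusted p = 0.0735).

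The other late genes were not called. MSMO1, a sterol methyl oxidase gene, was at 17.2, 18.97 and 21.3 CPM over the wild-type replicates against 21.5, 20.4 and 26.5 CPM in knockout libraries (adjusted p = 0.0816). It was called higher once wild-type replicate 3 was removed (0.33 on the log2 scale, adjusted p = 0.0468) and with library size alone (adjusted p = 0.0432). EBP, a sterol isomerase gene, was at 55.0 ± 3.9 and 48.9 ± 3.1 CPM (adjusted p = 0.0739) and was called lower without wild-type replicate 1 (adjusted p = 0.0418). NSDHL, a sterol dehydrogenase gene, was at 36.1 ± 0.8 and 34.5 ± 1.3 CPM (adjusted p = 0.512), and TM7SF2, a sterol reductase gene, was low in both, at 5.05 ± 0.61 and 5.17 ± 0.68 CPM (adjusted p = 0.91).

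**Figure D2:**
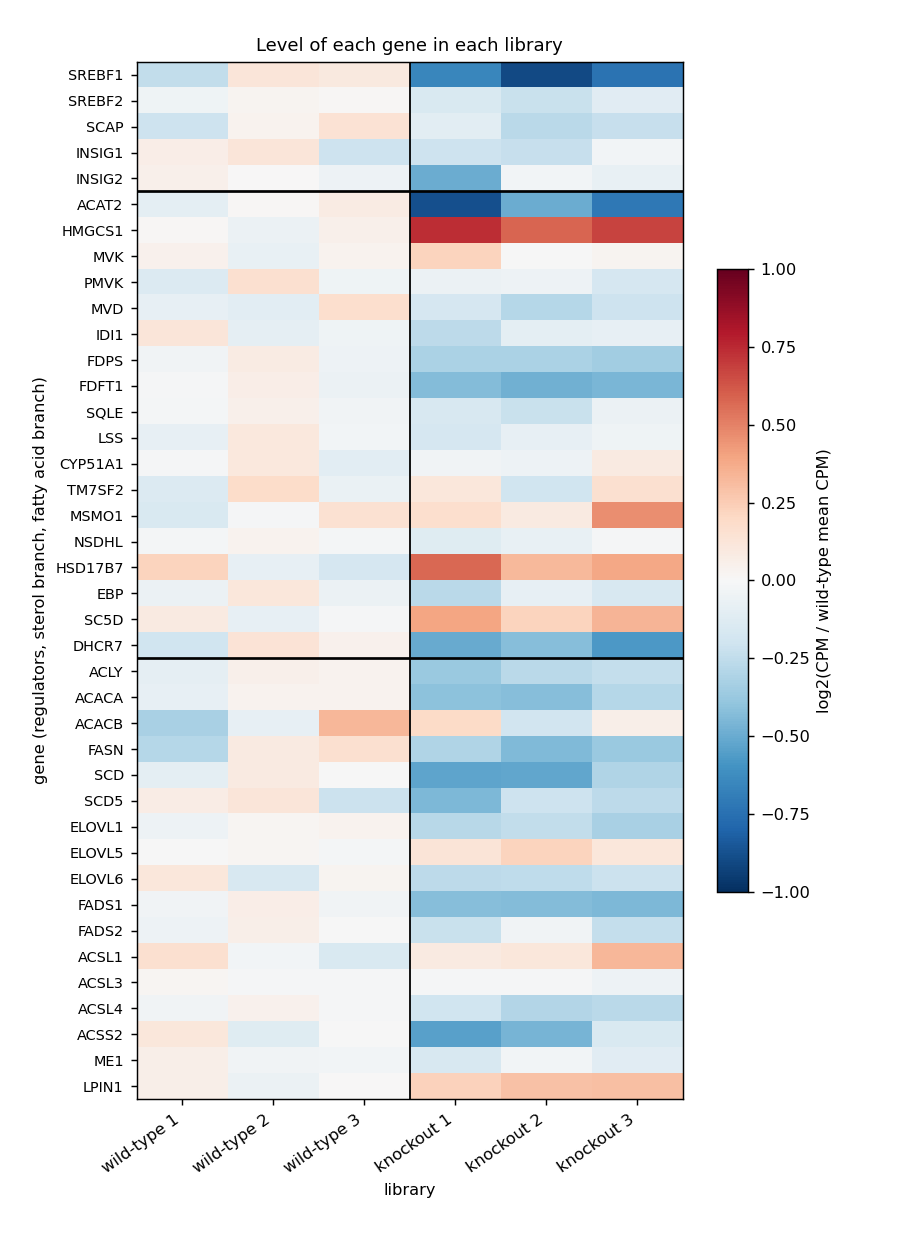
Level of the 40 tested genes (rows, pathway order) in each of the 6 libraries (columns) as log2 of CPM over the gene's wild-type mean, with red above and blue below it. ACAT2 and HMGCS1 stand in adjacent rows with opposite colours in all 3 knockout libraries, while most rows of the fatty acid branch are blue there.

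In the fatty acid branch, the genes that supply acetyl-CoA and build palmitate were lower. ACLY, which splits citrate into cytosolic acetyl-CoA, was at 216.9, 238 and 236 CPM over the wild-type replicates against 177.7, 191 and 195 CPM in knockout libraries (log2 fold change -0.29 with SE 0.06, adjusted p = 0.000256). ACSS2, which makes acetyl-CoA from acetate, was at 30.5, 25.9 and 28.1 CPM over the wild-type replicates against 19.3, 20.4 and 25.4 CPM in knockout libraries (log2 fold change -0.38 with SE 0.11, adjusted p = 0.00732). Knockout replicate 3 came within 1 CPM of wild-type replicate 2, and without knockout replicate 1 the ACSS2 call was lost (adjusted p = 0.0523). ME1, a source of NADPH, was at 61.3 ± 2.3 and 57.3 ± 2.6 CPM and was not called (adjusted p = 0.253).

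ACACA, the acetyl-CoA carboxylase of lipogenic tissue, was at 63.4, 68.8 and 68.8 CPM over the wild-type replicates against 50.3, 49.8 and 54.9 CPM in knockout libraries (log2 fold change -0.37 with SE 0.07, adjusted p = 0.000169). Its paralogue ACACB was far lower, at 6.99 ± 1.63 and 7.12 ± 0.93 CPM, or 0.482 CPM per kb of exon against 5.14 for ACACA in wild-type cells, and was not called (adjusted p = 0.915).

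FASN, the fatty acid synthase gene, was at 273, 353 and 371 CPM over the wild-type replicates against 269, 244 and 257 CPM in knockout libraries (log2 fold change -0.37 with SE 0.11, adjusted p = 0.0394). The groups did not overlap, but wild-type replicate 1 lay beside knockout replicate 1. Removing wild-type replicate 2 ended the call (adjusted p = 0.105), as did removing knockout replicate 1, 2 or 3 (adjusted p = 0.066, 0.0983 and 0.0728) or scaling by library size alone (adjusted p = 0.0731). With wild-type replicate 1 removed, the FASN log2 fold change was -0.50 (adjusted p = 3.53e-08). FASN lies on chromosome 17 at 82078338 to 82098294 (GRCh38), 12.45 kb from the edited DUS1L gene. SREBF1, ACACA, ACLY and FASN are the 4 tested genes of the set on chromosome 17 and all were lower, while 21.9% of the 991 tested genes of that chromosome were lower and their median log2 fold change was -0.02. Whether the edit or a copy number difference takes part in the FASN value was not tested.

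**Figure D3:**
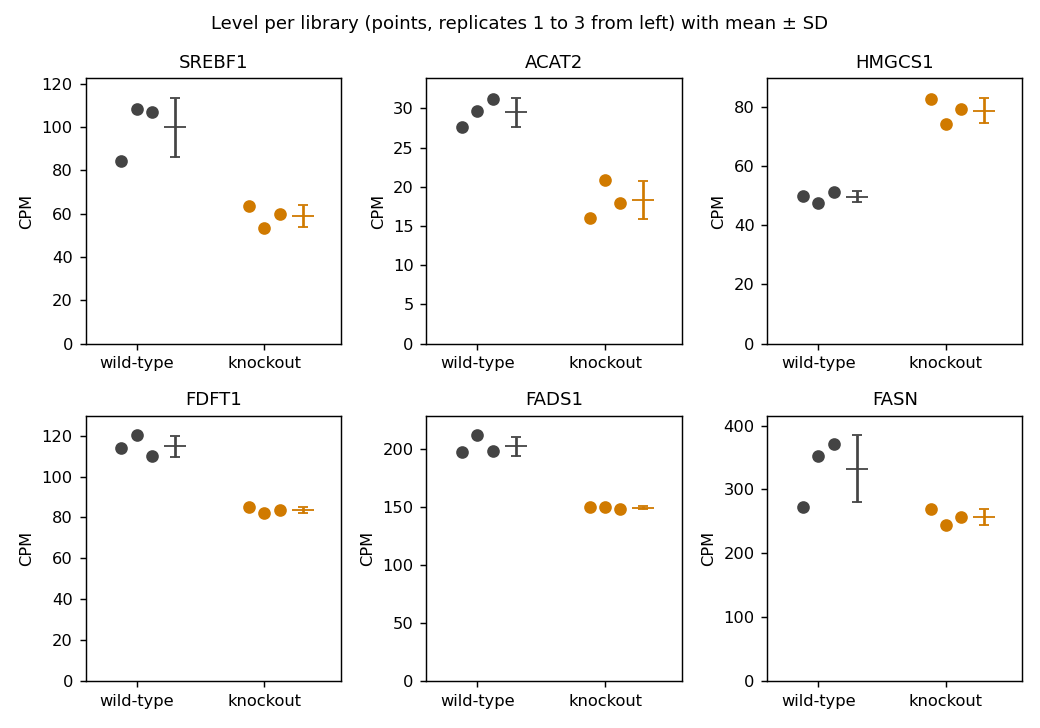
CPM of SREBF1, ACAT2, HMGCS1, FDFT1, FADS1 and FASN in each library (points, wild-type grey, knockout orange), with mean ± SD (n = 3 each) beside them and axes from 0. HMGCS1 is the one of the 6 that is higher in knockout cells, and for FASN wild-type replicate 1 at 273 CPM lies just above knockout replicate 1 at 269 CPM.

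Of the 7 desaturase and elongase genes, SCD, FADS1, ELOVL1 and ELOVL6 were lower, ELOVL5 was higher, and SCD5 and FADS2 were not called. SCD, which puts the first double bond into stearate and palmitate, was at 264, 301.5 and 282 CPM over the wild-type replicates against 196, 197 and 229 CPM in knockout libraries (log2 fold change -0.45 with SE 0.06, adjusted p = 2.32e-05). FADS1, a desaturase of polyunsaturated fatty acids, was at 197, 212 and 198 CPM over the wild-type replicates against 150.4, 149.7 and 148 CPM in knockout libraries (log2 fold change -0.44 with SE 0.05, adjusted p = 1.32e-06). The 3 knockout values of FADS1 lay within 3 CPM of each other. SCD5 was at 6.88 ± 0.83 and 5.58 ± 0.48 CPM (adjusted p = 0.163), and SCD was the highest member per length, at 53.9 CPM per kb of exon against 1.63 for SCD5 in wild-type cells.

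FADS2, the desaturase that acts before FADS1, was at 40.3, 43.5 and 41.6 CPM over the wild-type replicates against 35.7, 40.8 and 35.4 CPM in knockout libraries (adjusted p = 0.1). It was called lower without knockout replicate 2 (adjusted p = 0.0354) and after the length and GC correction (adjusted p = 0.0407). FADS1 and FADS2 share 490 exonic bases on opposite strands, so reads there cannot be told apart. FADS2 also shares 49 exonic bases with FEN1 on the same strand, a DNA repair gene that was higher in CPM than FADS2 and lower in knockout cells (208 ± 9 to 183 ± 11 CPM, SD, n = 3 each, adjusted p = 0.0123). Its part in the FADS2 value was not tested. Overlaps with other tested genes, such as IDI2-AS1 for IDI1, RUSC1-AS1 for FDPS, AKAP9 for CYP51A1, MMAB for MVK, VPS51 for TM7SF2, KCNE5 for ACSL4 and NDUFC2 for THRSP, carry the same limit.

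Among the elongases, ELOVL1, which extends very long chains, was at 105.9, 110.8 and 112 CPM over the wild-type replicates against 90.3, 92.3 and 87.6 CPM in knockout libraries (log2 fold change -0.28 with SE 0.06, adjusted p = 0.000459). ELOVL6, which extends palmitate, was at 49.4, 40.9 and 46.5 CPM over the wild-type replicates against 37.9, 38.1 and 39.3 CPM in knockout libraries (log2 fold change -0.24 with SE 0.08, adjusted p = 0.0172). It was no longer called on removing wild-type replicate 1 or 3 (adjusted p = 0.0749 and 0.0576) or knockout replicate 1 (adjusted p = 0.0575) or with library size alone (adjusted p = 0.0511). ELOVL5, which extends polyunsaturated chains, went the other way, at 102.3, 104.3 and 101.5 CPM over the wild-type replicates against 112.4, 119.9 and 111 CPM in knockout libraries (log2 fold change 0.16 with SE 0.06, adjusted p = 0.0322). That small step lost its call on removing wild-type replicate 2 or 3 (adjusted p = 0.0626 and 0.0866), knockout replicate 1 or 2 (0.0599 and 0.151), with no filter on low counts (0.0933), with replicate number as a block (0.0521) or after the length and GC correction (0.134).

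The acyl-CoA synthetases, which activate fatty acids for use, did not move together. ACSL4, which prefers polyunsaturated fatty acids, was at 80.8, 85.3 and 82.3 CPM over the wild-type replicates against 71.99, 67.4 and 68.7 CPM in knockout libraries (log2 fold change -0.25 with SE 0.06, adjusted p = 0.00206). ACSL3 was at 160.1 ± 1.7 and 157.6 ± 2.2 CPM (adjusted p = 0.751). ACSL1 was at 47.9, 42.2 and 38.7 CPM over the wild-type replicates against 45.6, 46.3 and 54.0 CPM in knockout libraries (adjusted p = 0.103), and was called higher once wild-type replicate 1 was removed (0.26 on the log2 scale, adjusted p = 0.0149) and with library size alone (adjusted p = 0.041).

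LPIN1, a phosphatidate phosphatase gene that SREBP also drives, was higher, at 32.3, 29.9 and 31.1 CPM over the wild-type replicates against 36.4, 38.1 and 38.2 CPM in knockout libraries (log2 fold change 0.27 with SE 0.08, adjusted p = 0.00723). THRSP, a lipogenic gene of liver and fat, had 1 count in each of 2 libraries and none in the others, and was not tested. At these depths 3 counts amount to 0.159 to 0.176 CPM.

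Set side by side, the 2 branches gave these values. In the fatty acid branch 13 of 17 tested genes had a log2 fold change below 0, over a range from -0.45 to 0.27. In the sterol branch 11 of 18 lay below 0, over a wider range from -0.69 to 0.67. Averaged over its tested genes, the deviation from the wild-type mean in the knockout libraries was -0.06, -0.09 and -0.04 (log2) for the sterol branch and -0.20, -0.18 and -0.14 for the fatty acid branch. The regulators were at -0.32, -0.32 and -0.23, an average that SREBF1 pulls down. Its log2 fold change was -0.76, while those of the other regulators ran from -0.20 to -0.15. By median the regulators (-0.19) lay above the fatty acid branch (-0.25). The sterol average minus the fatty acid average was -0.02 to 0.02 in wild-type libraries, where it is centred on 0 by construction, and 0.10 to 0.14 in knockout libraries. These averages describe chosen genes and carry no test.

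**Figure D4:**
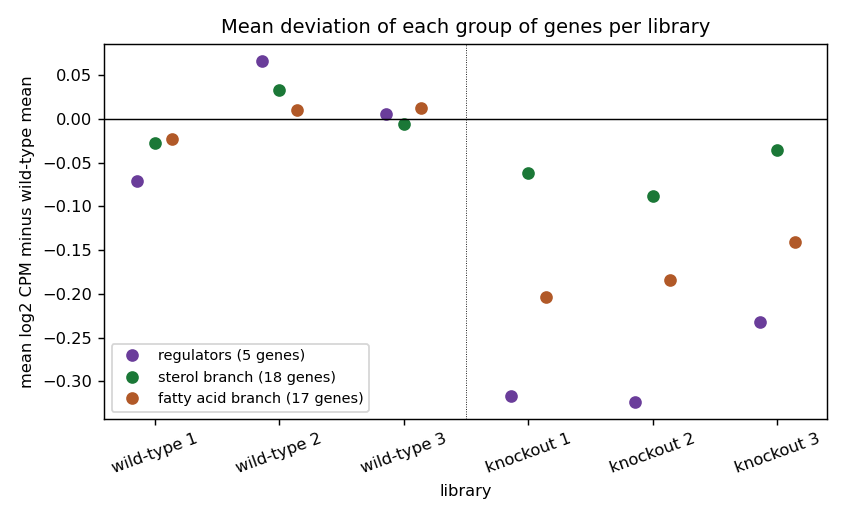
Mean over the tested genes of each group of log2 CPM minus the gene's wild-type mean, for the 6 libraries, with 5 regulators, 18 sterol genes and 17 fatty acid genes. In each knockout library the fatty acid branch lies below the sterol branch and the regulators lie lowest, at -0.32, -0.32 and -0.23. SREBF1 pulls the mean of the 5 regulators down, and by median log2 fold change the fatty acid branch is lower (-0.25 against -0.19).

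Beyond these genes, other parts of lipid metabolism were read from lists of further pathway genes. Their counts are to be read beside the shares over all tested genes, 20.7% lower and 20.5% higher. Of 8 further genes of sterol synthesis and its electron supply, 6 were lower (75%) and none was higher (median log2 fold change -0.37, 7 of 8 below 0). LBR, a sterol reductase of the nuclear envelope, and CYB5R3, a cytochrome b reductase gene, had log2 fold changes of -0.38 and -0.39 (adjusted p = 0.000117 and 2.2e-05).

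Genes of SREBP processing and turnover were called in both directions, 6 higher (46.2%) and 3 lower (23.1%) of 13 (median 0.15). PAQR3, a Golgi anchor of the SCAP and SREBP complex, rose from 50.6 ± 5.9 to 82.5 ± 1.8 CPM (log2 fold change 0.71, adjusted p = 2.88e-07). SPRING1, a factor needed for SREBP activation, rose from 46.8 ± 0.4 to 68.1 ± 0.2 CPM (0.54, adjusted p = 1.11e-06), and SEC24A, a subunit of the vesicle coat that carries cargo to the Golgi, rose from 95.5 ± 7.0 to 143 ± 13 CPM (0.58, adjusted p = 1.55e-06). ERLIN1, part of a complex that restrains SREBP and promotes sterol-driven degradation, fell from 86.9 ± 0.9 to 70.7 ± 2.5 CPM (-0.30, adjusted p = 0.00044).

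The isoprenoid side branches, which use farnesyl diphosphate for prenyl groups, dolichol and ubiquinone, gave 3 higher and 2 lower of 11 genes (median 0.07). These shares, 27.3% and 18.2%, were near those over all tested genes. FNTA, the shared subunit of protein prenyltransferases, had a log2 fold change of 0.39 (adjusted p = 0.00047), and ICMT, which methylates prenylated proteins, had one of -0.21 (adjusted p = 0.00546). For sterol storage, transport and efflux, 5 rose (31.25%) and 2 fell (12.5%) out of 16 tested genes (median 0.06). NPC1, which exports cholesterol from lysosomes, rose from 68.4 ± 0.8 to 96.9 ± 3.9 CPM (log2 fold change 0.50, adjusted p = 1.22e-06). Its partner NPC2 fell from 66.7 ± 5.2 to 53.2 ± 4.96 CPM (adjusted p = 0.0018) and the lysosomal lipase gene LIPA fell from 51.5 ± 4.9 to 35.4 ± 1.7 CPM (adjusted p = 1.68e-05).

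Further genes of fatty acid synthesis and elongation were higher in 3 (15.8%) and lower in 5 (26.3%) of 19 tested (median -0.05). Between these lists the further sterol genes had the lower median (-0.37). Between the branches the fatty acid genes had it (-0.25 against -0.09). SLC25A1, which exports citrate from mitochondria to feed ACLY, fell from 51.3 ± 3.4 to 35.9 ± 1.5 CPM (log2 fold change -0.51, adjusted p = 1.51e-05). IDH1, a cytosolic source of NADPH, had a log2 fold change of -0.51 (adjusted p = 3.46e-06), and TECR, which completes each elongation cycle, one of -0.44 (adjusted p = 3.9e-06). ELOVL7, another elongase gene, rose from 3.14 ± 0.36 to 10.3 ± 0.5 CPM (log2 fold change 1.71 with SE 0.17, adjusted p = 8.59e-08), the one gene of these further lists that passed the test against 1.5-fold. The elongase gene ELOVL4, named after its values were seen, was higher as well (log2 fold change of 0.57, adjusted p = 0.000271).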

How the data were processed

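Estimated counts were deposited by the authors as 1 gene-level table, with no normalization recorded and with fractional values, for 3 wild-type and 3 DUS1L knockout RNA-seq libraries (paired-end, BGISEQ-500, per the labels). The build was GRCh38, per the submitters' processing notes; aligner, counter, strand setting and annotation are not given in the sources used here. Of 63086 identifiers, 62541 (99.1%) matched GENCODE 44 without version, which gave symbols, positions and exon lengths.

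Estimated counts were rounded. edgeR 4.0.16 (R 4.3.3) was used with filterByExpr (minimum count 10), TMM scaling and a robust quasi-likelihood fit on group alone, two-sided, over 16046 genes, with Benjamini-Hochberg adjustment and a threshold of 0.05. Standard errors come from the log2 fold change and its F statistic. CPM per kb divides by merged exon length, which overstates the length of any 1 transcript. Simulated counts for this comparison (16046 genes, 200 changed by 1.25-fold to 4-fold) gave 131 recovered and 11 false calls. Far more genes were called in the data (3288 higher and 3320 lower), and no member changed by more than 1.69-fold. These rates therefore do not carry over to the members. Libraries differed beyond sampling noise (chi-square per degree of freedom 3.74 or more), so none was merged. The series describes its replicates as biological, but the number of knockout clones is not given. The p-values speak to the spread among these libraries, which may be technical and may hold no spread between clones.

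Members and lists were chosen with earlier results of these data known. All 41 members are accounted for, with values per library for regulators and for called members of 5 CPM or more without overlap; at most 4 genes with the smallest p are named per further list. Values per library of SCAP, INSIG1, INSIG2, MVD, SQLE, MSMO1, FADS2 and ACSL1 are given too, some chosen after their values were seen. Alternatives were DESeq2 1.42.0, limma-voom 3.58.1, 2 other scalings, 2 other filters, a replicate block, a correction for exonic length and GC content (mgcv 1.9.3) and leaving out each library.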

Additional observations from a re-analysis of the deposited data

How the results depend on the processing

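Of 560 refits of single members (40 genes under 14 alternatives), 499 kept direction and call, 36 lost the call, 11 gained one and 14 changed sign, the last all in 4 genes near 0 that were not called. Called in all 14 were SREBF1, ACAT2, HMGCS1, FDPS, FDFT1, SC5D, DHCR7, ACLY, ACACA, SCD, ELOVL1, FADS1, ACSL4 and LPIN1. Lower regulators numbered 1 with library size alone and with the replicate block, and 1 to 3 with a library left out (1 without wild-type replicate 2 or knockout replicate 2), against 3. Higher fatty acid genes numbered 1 with no filter on low counts, with the replicate block and with the length and GC correction, and 1 to 3 with a library left out (1 without wild-type replicate 2 or 3 or knockout replicate 1 or 2), against 2, and 3 with library size alone. Lower fatty acid genes numbered 7 with library size alone, 10 with the length and GC correction and 6 to 9 with a library left out (6 without knockout replicate 1), against 9. Lower sterol genes numbered 7 with the length and GC correction, against 4. The median log2 fold changes of regulators, sterol and fatty acid branches were -0.1411, -0.04857 and -0.209 with library size alone, and -0.2319, -0.1167 and -0.2994 with the length and GC correction. With a library left out they ranged from -0.2213 to -0.1685, from -0.1143 to -0.04858 (wild-type replicate 2 left out) and from -0.2669 to -0.2355. For all tested genes together, the median was 0.04122 with library size alone and -0.04236 with the length and GC correction, against -0.00418. The causes were not tested, though leaving out a library also leaves fewer samples. Sign changes were as follows. ACSL3 was at 0.02246 with library size alone. CYP51A1 was at -0.01196 with no filter, -0.05639 with the length and GC correction, and -0.05135 to 0.05481 with a library left out. TM7SF2 was at -0.03662 to 0.1336 and ACACB at -0.1077 to 0.2228 with a library left out, and ACACB at -0.0064 with the length and GC correction. Same-numbered libraries did not deviate together (correlations -0.03, -0.0014 and 0.03) and share only a number; as a hint from the data, not every library correlated best with its own number. Over all tested genes the share in each direction moved with the processing: 3880 genes were higher and 2732 lower with library size alone, 2985 and 3998 with the length and GC correction and 3122 and 3119 with the replicate block, against 3288 and 3320. Leaving out a library gave 2669 to 3330 higher and 2700 to 3307 lower genes. Genes with few counts, such as ACACB, TM7SF2 and SCD5, have wide errors (SE 0.18, 0.19 and 0.17).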

Other observations

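Genes of fatty acid oxidation, the pathway opposite to synthesis, were lower in 7 and higher in 1 of 20 tested genes in DUS1L knockout cells (median log2 fold change -0.12). That is 35% and 5%, against 20.7% and 20.5% over all tested genes. ACADVL, which begins the mitochondrial breakdown of long chains, fell from 325.9 ± 8.5 to 256 ± 12 CPM (SD, n = 3 each, log2 fold change of -0.35, adjusted p = 1.58e-05, edgeR). HADH, a dehydrogenase of shorter chains, fell from 44.9 ± 3.3 to 34.0 ± 2.0 CPM (adjusted p = 0.000352). CPT1C, a brain-type carnitine palmitoyltransferase gene, fell from 4.21 ± 0.92 to 1.77 ± 0.47 CPM (a log2 fold change of -1.25 with SE 0.27, adjusted p = 0.000815). Neither these genes nor the branches of synthesis were tested as sets.

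Triglyceride synthesis and storage genes showed little net movement, with 2 higher (13.3%) and 3 lower (20%) of 15 tested (median 0.02). Over all tested genes the shares were 20.5% and 20.7%. MGLL, monoglyceride lipase, rose from 43.5 ± 2.7 to 65.5 ± 5.3 CPM (log2 fold change 0.59, adjusted p = 2.96e-06). GPAT3 and DGAT1, acyltransferases at the first and last steps of triglyceride assembly, fell by 0.28 and 0.35 on the log2 scale (adjusted p = 0.0016 and 0.00733).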
